A study of Mus musculus with 2 samples.

Results

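The SLAM family receptors described here are 6 genes, Slamf7, Slamf8, Slamf9, Cd48, Cd84 and Ly9, taken by symbol from the 27998 genes listed in both count matrices. Each symbol matched 1 row, and all 6 passed the minimum of 5 CPM (counts per 1000000 UMIs) in either library. The data are single-cell transcriptomes of tumor mononuclear phagocytes (TMPs), sorted by FACS as MerTk+ CD64+ cells from B16 melanoma, a transplanted mouse tumor line of C57Bl/6 origin. There was 1 library of cells from Fcmr+/+ mice and 1 of cells from Fcmr-/- mice, both on the C57Bl/6 strain. Fcmr encodes the Fc receptor for IgM, and the Fcmr-/- mice lack it in all cells, not in phagocytes alone. The age of the mice and the number that gave each library are not given in the sources used here. A single library stands for each genotype, so mice cannot be compared with one another, the genotypes were not tested, and genotype cannot be told apart from any other difference between the libraries.

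SLAM family receptors are immunoglobulin superfamily proteins of hematopoietic cells, and most bind a copy of themselves on a neighboring cell. CD48 differs, since it is held by a lipid anchor and serves as the ligand of CD244. Their tails can recruit the adaptors SAP and EAT-2, which link them to Src family kinases, or phosphatases such as SHP-1, encoded by Ptpn6. In macrophages SLAMF7 is known for its part in engulfing blood cancer cells together with the integrin Mac-1, while SLAMF8 is known as a brake on the phagocyte oxidase. SLAMF8 and SLAMF9 have short tails without the tyrosine motif that binds the adaptors.

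The 6 genes lie together on chromosome 1 (GRCm38), Ly9 at chr1:171588624-171607410 on the minus strand, Slamf7 at chr1:171632403-171653035 on the minus strand, Cd48 at chr1:171682009-171705258 on the plus strand and Cd84 at chr1:171839697-171890718 on the plus strand. Slamf9 at chr1:172475358-172478575 on the plus strand and Slamf8 at chr1:172581758-172590568 on the minus strand form a second group. With Cd244 and other relatives the cluster spans 1.03 Mb, and it starts 40.7 Mb beyond the end of Fcmr on the same chromosome. Cd244 overlaps Ly9 on the opposite strand, and the strand setting of the counting is not given in the sources used here.

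RefSeq promoters (GRCm38.p6, from 250 bases before to 50 after the annotated start) were available for 5 of the 6 genes, and Ly9 had no entry. The promoters of Slamf7 and Slamf8 are shown because these genes differed most between the libraries, and that of Cd84 because it was the most abundant member and differed little. They lie at chr1:171648950-171649249 (Slamf7, minus strand), chr1:172590519-172590818 (Slamf8, minus strand) and chr1:171839447-171839746 (Cd84, plus strand). The Slamf7 start of RefSeq lies inside the gene span given above, not at its end. Each sequence is written 5′ to 3′ on the strand of its gene, and capitals mark matches to GAAANNGAA, a short form of the element bound by interferon regulatory factors, on either strand.

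Slamf7: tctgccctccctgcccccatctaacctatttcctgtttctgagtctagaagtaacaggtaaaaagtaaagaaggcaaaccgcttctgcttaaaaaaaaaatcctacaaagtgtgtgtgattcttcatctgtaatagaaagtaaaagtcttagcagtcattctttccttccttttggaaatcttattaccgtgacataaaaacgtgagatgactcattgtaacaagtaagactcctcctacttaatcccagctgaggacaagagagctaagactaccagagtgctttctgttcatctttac
Slamf8: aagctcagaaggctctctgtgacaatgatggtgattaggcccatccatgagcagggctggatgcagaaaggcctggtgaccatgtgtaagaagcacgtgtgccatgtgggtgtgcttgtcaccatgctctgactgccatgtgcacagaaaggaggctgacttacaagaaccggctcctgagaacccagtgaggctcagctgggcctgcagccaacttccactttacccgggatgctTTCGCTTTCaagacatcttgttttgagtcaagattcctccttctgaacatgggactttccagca
Cd84: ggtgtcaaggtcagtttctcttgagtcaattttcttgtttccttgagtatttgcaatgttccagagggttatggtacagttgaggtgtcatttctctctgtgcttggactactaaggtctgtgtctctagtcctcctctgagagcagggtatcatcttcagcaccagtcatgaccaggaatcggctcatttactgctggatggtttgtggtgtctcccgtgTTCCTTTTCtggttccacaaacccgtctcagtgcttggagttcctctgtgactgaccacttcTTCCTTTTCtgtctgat

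Slamf8 held 1 such match, whose first base lies 14 bases before the start. Cd84 held 2, with first bases 29 bases before the start and 34 bases into the transcript, and Slamf7, Slamf9 and Cd48 held 0. Of 32851 promoters of this length, 8.56% held a match. The interferon-γ-activated element TTCNNNGAA matched in 0 of the 5 promoters and in 8.30% of all, and the PU.1 element GAGGAAGT matched in Slamf9 and in 3.20% of all. The motifs were chosen after the sequences had been seen, they do not overlap in these promoters, and a match is a run of letters and not evidence of binding.

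The libraries differed in depth. Filters kept 6352 Fcmr+/+ and 7999 Fcmr-/- TMPs, with medians of 17973.5 and 12911 unique molecular identifiers (UMIs) per cell, and 73 cell barcodes occurred in both libraries. Shares of cells with a UMI are therefore given after each cell was thinned to 6643 UMIs. Cells under that depth, 151 of Fcmr+/+ and 800 of Fcmr-/- origin, were not used for shares. Fcmr itself had 7 UMIs in Fcmr+/+ and 6 in Fcmr-/- cells, too few to check the genotypes. Macrophage markers were abundant, with 9 genes summing to 14440.4 CPM in Fcmr+/+ and 14539 CPM in Fcmr-/- cells, of which Lyz2 made up 8942 and 9011 CPM. The genes of the sort differed in opposite directions, Fcgr1 (CD64) at 250.4 CPM in Fcmr+/+ and 394 CPM in Fcmr-/- cells and Mertk at 62.8 and 48.7 CPM, and their part in the receptor differences was not tested. Free RNA could not be measured in cells that should lack the receptors, because no cluster of such cells was present.

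Slamf7 and Slamf8 were clearly more abundant in the Fcmr-/- library, Ly9 moderately so, Cd48 and Cd84 slightly, and Slamf9 was at the same level in both. Levels are CPM of summed UMIs, and log2 ratios are of Fcmr-/- over Fcmr+/+ with nothing added. Intervals are exact at 95% and cover counting error only. Of the 6 genes, 2 were at least 1.5-fold higher in Fcmr-/- cells, where 2.64% of the 8701 genes tested were (230 genes). Of the 6, 0 were at least 1.5-fold lower, where 2.17% of all genes were (189 genes). The median log2 ratio of the 6 was 0.30 and that of all genes tested 0.002.

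Slamf8, the oxidase regulator, had 15.7 CPM (interval 15.0 to 16.4) in the Fcmr+/+ library and 67.4 CPM (interval 65.9 to 68.8) in the Fcmr-/- library. This was a 4.28-fold difference, a log2 ratio of 2.10 (interval 2.03 to 2.17), at or above 99.8% of the genes tested. Both more cells and more UMIs per cell contributed. A UMI was found in 8.45% of thinned Fcmr+/+ cells and 28.4% of thinned Fcmr-/- cells, and among all cells with a UMI the mean was 1.70 UMIs in Fcmr+/+ and 2.46 in Fcmr-/- cells despite the lower depth of the latter.

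Slamf7, the phagocytosis receptor, had 94.7 CPM (interval 93.0 to 96.4) in the Fcmr+/+ and 176 CPM (interval 174 to 179) in the Fcmr-/- library. The log2 ratio was 0.90 (interval 0.87 to 0.93), at or above 98.9% of genes tested. Thinned cells with a UMI made up 41.1% in Fcmr+/+ and 59.8% in Fcmr-/- cells. The rank of Slamf7 among all genes by level moved from 1505 in Fcmr+/+ to 819 in Fcmr-/- cells, and that of Slamf8 from 5905 to 2090.

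Ly9, a receptor that binds itself, had 58.0 CPM (interval 56.7 to 59.3) in Fcmr+/+ and 76.8 CPM (interval 75.3 to 78.3) in Fcmr-/- cells. Its log2 ratio of 0.40 (interval 0.36 to 0.45) was below the 1.5-fold limit but at or above 95.3% of genes tested. Cd244, which shares part of its span, had 9.35 CPM in Fcmr+/+ and 8.55 CPM in Fcmr-/- cells, and whether reads of one were counted for the other was not tested. Thinned cells with a Ly9 UMI made up 29.2% in Fcmr+/+ and 38.3% in Fcmr-/- cells.

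Cd48, the ligand of CD244, had 158 CPM in Fcmr+/+ and 181 CPM in Fcmr-/- cells, with a log2 ratio of 0.19 (interval 0.17 to 0.22). Cd84, a self-binding receptor, had 254 CPM in Fcmr+/+ and 275 CPM in Fcmr-/- cells, with a log2 ratio of 0.11 (interval 0.09 to 0.13). Their thinned shares of cells with a UMI were 60.5% and 66.5% for Cd48, and 76.6% and 79.9% for Cd84, in Fcmr+/+ and Fcmr-/- cells. Without thinning, the shares ran the other way, with Cd48 in 84.3% of Fcmr+/+ and 82.5% of Fcmr-/- cells and Cd84 in 92.3% and 90.9%. The deeper Fcmr+/+ cells thus gave higher shares for genes whose CPM was lower.

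Slamf9, the other short-tailed member, had 42.6 CPM (interval 41.5 to 43.7) in Fcmr+/+ and 41.9 CPM (interval 40.7 to 43.0) in Fcmr-/- cells. Its log2 ratio was -0.02 (interval -0.08 to 0.03), so at this depth a pooled difference beyond counting error was not detectable. Thinned cells with a UMI made up 19.8% in Fcmr+/+ and 18.4% in Fcmr-/- cells. The close pooled levels of Slamf9 held differences of opposite sign within clusters of cells, described below.

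**Figure D1:**
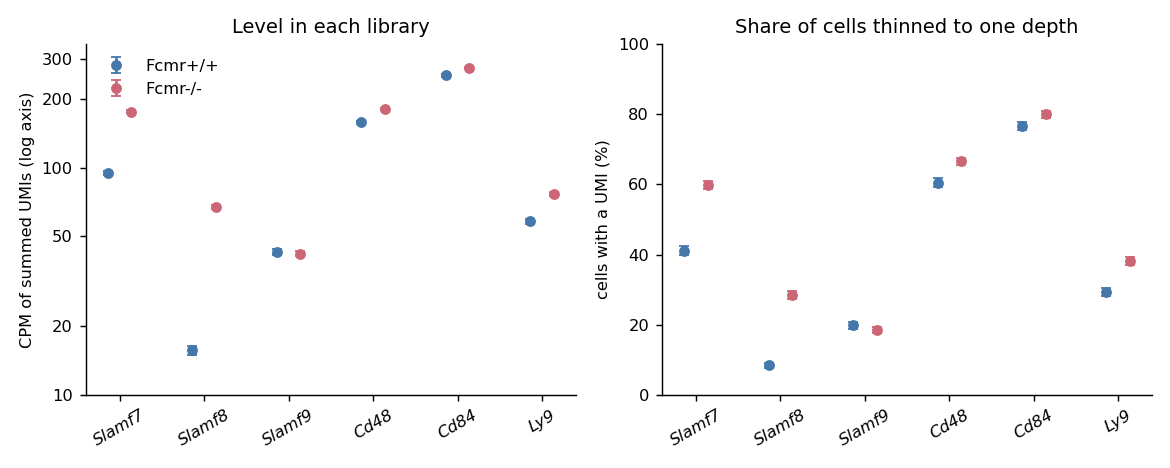
Left, level of each gene in each library as CPM of summed UMIs on a log axis with exact Poisson intervals; right, percent of cells with at least 1 UMI after thinning to 6643 UMIs per cell, with exact binomial intervals. Slamf8 lies at 15.7 CPM in Fcmr+/+ and 67.4 CPM in Fcmr-/- cells, whereas the Slamf9 points nearly coincide.

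More members were found per cell in the Fcmr-/- library. At equal depth the mean number of the 6 genes with a UMI was 2.36 in Fcmr+/+ and 2.91 in Fcmr-/- cells, and the median 2 and 3. No member was found in 3.89% of Fcmr+/+ and 1.82% of Fcmr-/- cells. All 6 were found in 7 Fcmr+/+ and 65 Fcmr-/- cells, out of 6201 and 7199. The members' summed level was 624 CPM in Fcmr+/+ and 819 CPM in Fcmr-/- cells.

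Genes outside the SLAM family between Cd84 and Slamf8 differed little between the libraries. The family gene Slamf6, which also lies there, had a log2 ratio of 1.23 and is described below. Between the first and last gene of the cluster, 8 genes outside the family passed the minimum of 5 CPM. They were Ncstn, Copa, Pex19, Dcaf8, Pea15a, Igsf8, Pigm and Tagln2. Their log2 ratios lay between -0.19 and 0.06, and 0 of the 8 were past 1.5-fold in either direction. Of all genes tested, 2.64% were past it higher and 2.17% lower, so a count of 0 among so few genes carries little weight. All 8 lie between Cd84 and Slamf8, so they do not cover the stretch that holds Ly9, Slamf7, Cd48 and Cd84.

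TMPs were grouped into 11 clusters, made on both libraries together after the SLAM family genes had been left out of the variable genes, so that the receptors did not shape them. Clusters are numbered by size and described by their leading genes. Clusters 3 (led by Ly6c2, Ly6a, Gbp4, Il18bp and Serpina3g) and 9 (led by Iigp1, Serpina3g, Cxcl9, AW112010 and Gbp2) consisted of 95.8% and 96.1% Fcmr-/- cells. A list of 10 genes known to respond to interferon-γ summed to 808 CPM in cluster 3 and 1313 CPM in cluster 9. It had 722 CPM in cluster 10 and 347 CPM or less in each other cluster. Gbp4, Serpina3g, Iigp1, Cxcl9 and Gbp2 are on the list, so its sums in clusters 3 and 9 partly restate their leading genes. Cluster 10 (led by Rsad2, Ifit1bl1, Cmpk2, Ifit3 and Ifit1) also had 8905 CPM of a list of 9 type I interferon genes, against 1233 CPM or less elsewhere.

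Levels per cluster are first given over the cells of both libraries together, which the clusters hold in unequal shares. On this basis Slamf8 had the widest range, from 117 CPM (interval 113 to 121) in cluster 3 to 11.1 CPM (interval 10.1 to 12.2) in cluster 4, led by Tfrc, Cnrip1, Gas6, Ednrb and Cela1. Cluster 3 was followed by cluster 9 with 97.1 CPM, cluster 10 with 74.2 CPM and cluster 7 (led by Mfge8, Plpp3, Wfs1, Atp6v0d2 and Ctsk) with 47.9 CPM. These intervals did not overlap, while those of clusters 5 and 2, 6 and 1, 1 and 11, and 8 and 4 did. Clusters 3 and 9 together held 17.9% of all cells and 48.7% of Slamf8 UMIs. The few Fcmr+/+ cells in them were also high in Slamf8, at 95.3 CPM in cluster 3 (68 cells) and 73.3 CPM in cluster 9 (37 cells). In thinned Fcmr-/- cells a Slamf8 UMI was found in 46.5% of cluster 3 and 9.47% of cluster 4.

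Slamf7 was highest in cluster 10, at 337 CPM (interval 326 to 349), then in cluster 3 at 230 CPM and cluster 9 at 179 CPM. It was lowest in cluster 1 (led by Ccl17, Il1r2, Ifitm1, Ear2 and Ltc4s), at 80.3 CPM. Of the neighbors in this order, clusters 6 and 7 and clusters 11 and 8 had overlapping intervals. In Fcmr+/+ cells alone, cluster 10 was also the highest in Slamf7, at 216 CPM, but its 17.5 CPM of Slamf8 were below the 31.9 CPM of cluster 7 and the 23.4 CPM of cluster 2.

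Over both libraries together, Slamf9 was highest in cluster 9 at 64.0 CPM and in the dividing cluster 5 (led by Cenpf, Nusap1, Prc1, Pbk and Plk1) at 63.7 CPM, whose intervals overlapped. It was lowest in cluster 2 (led by Cxcl3, Ppbp, Areg, Ccl24 and Il1a), at 12.4 CPM (interval 11.1 to 13.8). Clusters 6 and 7 followed with 21.4 and 20.8 CPM. The order differed between the libraries. Among clusters with at least 50 Fcmr+/+ cells, those cells had most Slamf9 in cluster 10, at 69.4 CPM, against 46.3 CPM over both libraries, and cluster 3 stood at 45.8 CPM in Fcmr+/+ and 30.6 CPM in Fcmr-/- cells.

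Cd48, Cd84 and Ly9 varied less over the clusters than the other members. Cd48 ran from 214 CPM in cluster 8 (led by Acp5, Apoe, Cyp4f18, Cirbp and Ypel3) to 103 CPM in cluster 6 (led by Hbb-bs, Hba-a1, Adm, Rhov and Sdc1), a 2.07-fold range. Cluster 11 (led by Adm, Pdgfa, Rassf8, Bhlhe41 and Dct) was next lowest in Cd48, with 112 CPM and an interval that overlapped that of cluster 6. Cd84 ran from 368 CPM in cluster 7 to 218 CPM in cluster 6, a 1.68-fold range. Ly9 was also highest in cluster 7, at 92.0 CPM, and lowest in cluster 1, at 42.5 CPM, and 8 of its 10 neighboring pairs in the order had overlapping intervals.

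**Figure D2:**
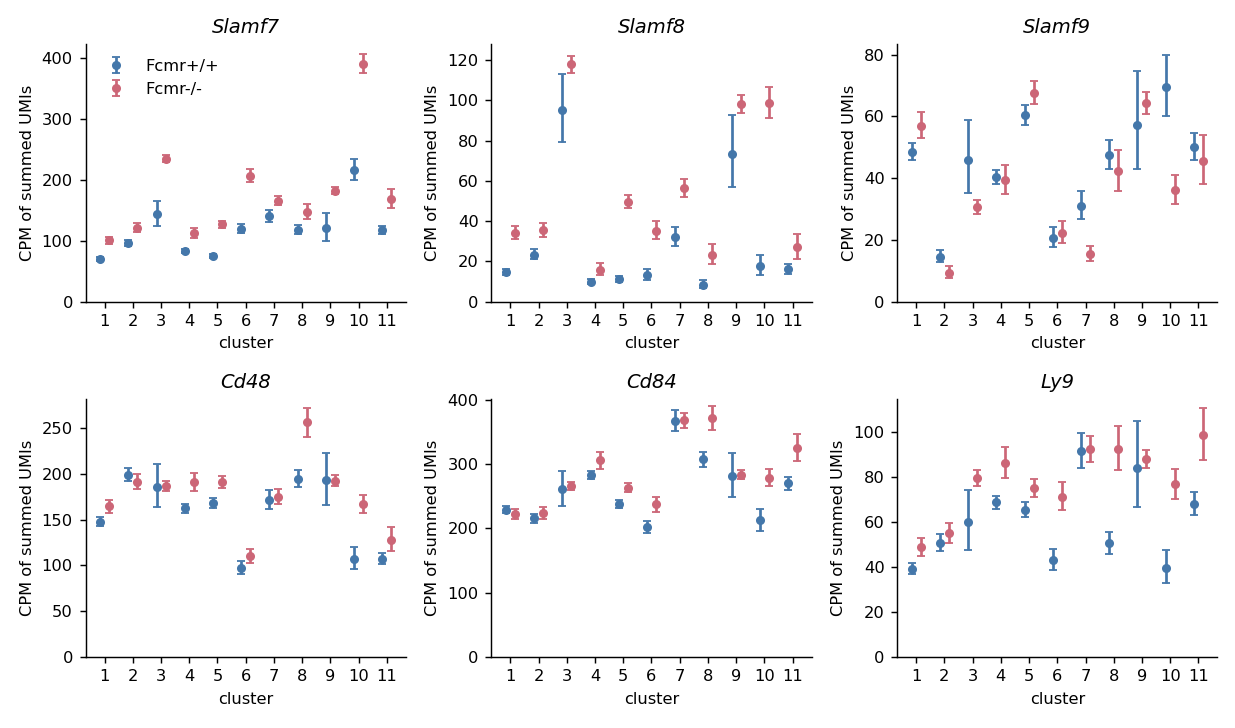
Level of each gene as CPM of summed UMIs in Fcmr+/+ and Fcmr-/- cells of each of the 11 clusters, with exact Poisson intervals. In Fcmr-/- cells Slamf8 is highest in clusters 3, 10 and 9, whereas in Fcmr+/+ cells cluster 10 is at 17.5 CPM; Slamf7 is highest in cluster 10 in both, and the wide Fcmr+/+ intervals in clusters 3 and 9 reflect 68 and 37 cells.

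Within clusters the direction between the libraries was the same for most members. The 10 clusters with at least 50 cells of each library gave 60 pairs of gene and cluster, of which 85.0% were higher in Fcmr-/- cells. The share of all genes that were higher within the same clusters was not computed, so no background stands beside these counts. Slamf7 was higher in Fcmr-/- cells in 10 of 10 clusters, with all 10 intervals above 0 and log2 ratios from 0.24 in cluster 7 to 0.85 in cluster 10. Slamf8 was higher in 10 of 10 clusters, with all 10 intervals above 0 and ratios from 0.31 in cluster 3 to 2.50 in cluster 10. Ly9 was higher in 10 of 10, with 8 intervals above 0 and ratios from 0.01 in cluster 7 to 0.95 in cluster 10. These are not 10 replicates, since all clusters share the same pair of libraries. With 20 principal components in the clustering, Slamf8 was higher in 8 of 9 clusters, the lowest ratio being -0.06.

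Averaged over clusters with equal weight, the Slamf8 log2 ratio was 1.19 and that of Slamf7 0.55, against 2.10 and 0.90 over all cells. Only Slamf8 then remained past 1.5-fold. When clusters 3 and 9 were left out, an alternative chosen after the data were seen, Slamf8 had 14.4 CPM in Fcmr+/+ and 43.9 CPM in Fcmr-/- cells, with a log2 ratio of 1.61 (1.52 to 1.69). Slamf7 then had a log2 ratio of 0.74 (interval 0.71 to 0.78), so both genes stayed past 1.5-fold. The 2 clusters held 30.8% of the cells and 58.1% of the Slamf8 UMIs of the Fcmr-/- library. Of the Fcmr+/+ library they held 1.65% of the cells and 9.76% of the Slamf8 UMIs.

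Cluster 10, where the type I interferon genes were highest, had the largest within-cluster ratio for 5 of the 6 genes. How often other genes had their largest ratio in cluster 10 was not computed. There Slamf8 was at 17.5 CPM in Fcmr+/+ and 98.9 CPM in Fcmr-/- cells, Slamf7 at 216 and 390 CPM, and Ly9 at 39.6 and 76.7 CPM. Cd48 was at 107 and 167 CPM and Cd84 at 213 and 279 CPM. Slamf9 went the other way in this cluster, at 69.4 CPM in Fcmr+/+ and 36.1 CPM in Fcmr-/- cells, with a log2 ratio of -0.94 (interval -1.22 to -0.66). The Slamf8 level of the 230 Fcmr+/+ cells in cluster 10 was thus close to the 15.7 CPM of all Fcmr+/+ cells, while that of the 639 Fcmr-/- cells was above the 67.4 CPM of their library.

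Slamf9 was lower in Fcmr-/- cells in 7 of 10 clusters, with 4 intervals below 0, in clusters 2, 3, 7 and 10. The lowest ratio was in cluster 7, where it was at 31.0 CPM in Fcmr+/+ and 15.4 CPM in Fcmr-/- cells, with a log2 ratio of -1.01 (interval -1.32 to -0.70). It was higher in Fcmr-/- cells, with intervals above 0, in cluster 1 (48.5 and 57.0 CPM) and cluster 5 (60.4 and 67.7 CPM). Averaged over the clusters with equal weight, its log2 ratio was -0.30. Cd48 and Cd84 were each higher in Fcmr-/- cells in 9 of 10 clusters, with 7 and 6 intervals above 0 and the largest ratios 0.63 and 0.39.

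**Figure D3:**
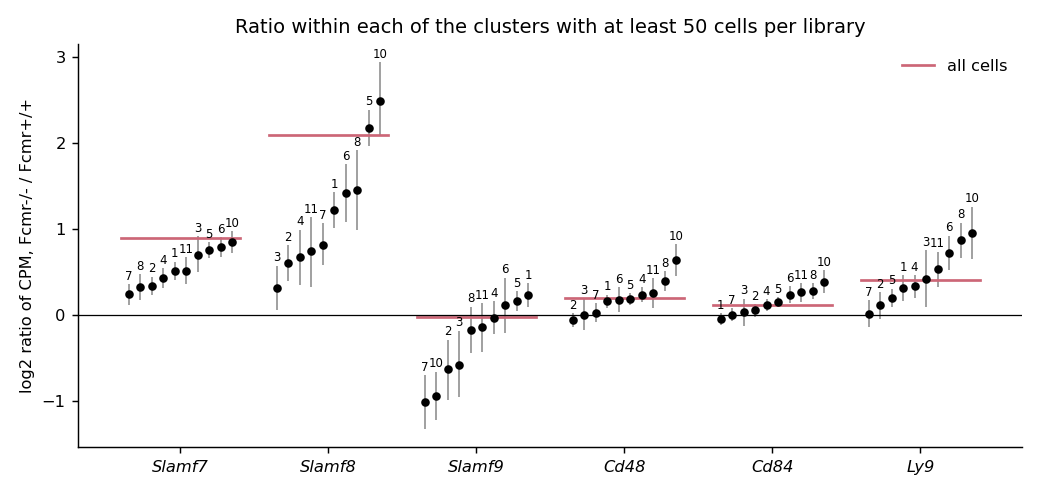
Log2 ratio of CPM, Fcmr-/- over Fcmr+/+, for each gene in each of the 10 clusters with at least 50 cells per library (points numbered by cluster, lines are exact 95% counting intervals) and over all cells (red bars). All Slamf7 and Slamf8 points are above 0, and Slamf9 points lie on both sides from -1.01 to 0.23.

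Genes known to respond to interferon-γ differed strongly between the libraries. The list was chosen with earlier results of these data known, so its differences are a description and not a separate finding. All 10 of its genes were past 1.5-fold higher in Fcmr-/- cells, where 2.64% of all genes tested were. It summed to 86.1 CPM in Fcmr+/+ and 576 CPM in Fcmr-/- cells. Cells were therefore also divided by their UMIs of this list after thinning, a division made once the data had been seen. Fcmr-/- cells with 6 or more such UMIs numbered 1280 and Fcmr+/+ cells 98.

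Slamf8 was found more often in cells with more list UMIs in both libraries. It was found in 7.49% of Fcmr+/+ cells with 0 list UMIs and in 41.8% (interval 31.9 to 52.2) of those with 6 or more. In Fcmr-/- cells the shares were 16.9% (interval 15.6 to 18.3) with 0 list UMIs and 53.5% (interval 50.7 to 56.3) with 6 or more. At each of the 4 levels of the list the Slamf8 share was higher in Fcmr-/- cells, although the intervals overlapped at 6 or more. A cell with 0 list UMIs at this depth may still contain such transcripts.

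Slamf7 followed the same course from a higher start, with 40.3% of Fcmr+/+ and 52.6% of Fcmr-/- cells at 0 list UMIs and 65.3% and 71.9% at 6 or more. Slamf9 was found in 14.3% of Fcmr-/- cells with 0 list UMIs and 27.9% of those with 6 or more, and at 0 list UMIs it was more frequent in Fcmr+/+ cells, at 19.1%. The shares of Cd48, Cd84 and Ly9 in Fcmr-/- cells moved little over the levels, between 65.3% and 69.5% for Cd48, 78.4% and 80.6% for Cd84, and 37.2% and 41.3% for Ly9. In Fcmr+/+ cells the shares were lower at 6 or more list UMIs than at 0. Ly9 went from 29.4% to 18.4% (interval 11.3 to 27.5), whose interval left out the former value, while for Cd48 (60.1% and 53.1%) and Cd84 (76.7% and 70.4%) the intervals at 6 or more held the share at 0. In Fcmr-/- cells Slamf7, Slamf8 and Slamf9 were thus found more often where the interferon-γ list was higher. In Fcmr+/+ cells the Slamf9 share was 29.7% (interval 23.2 to 36.9) at 3 to 5 list UMIs (185 cells), above the 19.1% at 0. At 6 or more (98 cells) it was 25.5%, with an interval that held the 19.1% at 0.

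A division by the 9 type I interferon genes also gave higher Slamf7 and Slamf8 shares at 6 or more UMIs than at 0. A rise was thus not particular to the interferon-γ list. In Fcmr-/- cells the Slamf7 share was 51.6% at 0 and 70.7% at 6 or more UMIs of the type I list, and the Slamf8 share 17.8% and 39.0%. In Fcmr+/+ cells the shares were 38.8% and 49.1% for Slamf7 and 6.88% and 11.9% for Slamf8. Fcmr+/+ cells with 1 to 2 and 3 to 5 such UMIs had Slamf7 shares of 40.3% and 38.7%, close to that at 0. At 6 or more UMIs of the interferon-γ list the Slamf8 shares were 53.5% in Fcmr-/- and 41.8% in Fcmr+/+ cells. Those groups were smaller, with 1280 and 98 cells against 2158 and 1068 by the type I list. The lists differ in abundance, with 86.1 CPM for interferon-γ and 726 CPM for type I in Fcmr+/+ cells. The same cut of 6 UMIs therefore selects unlike shares of cells, so the sizes of the rises cannot be compared.

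**Figure D4:**
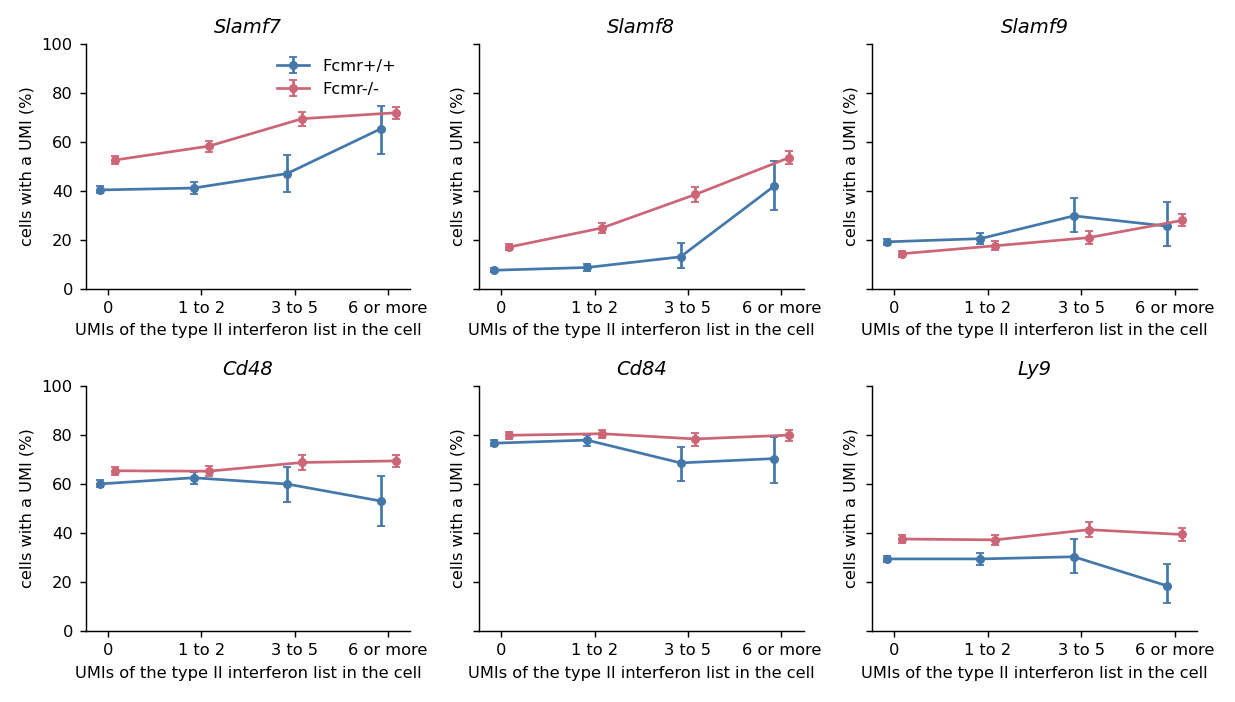
Percent of thinned cells with a UMI of each gene, with exact binomial intervals, in cells grouped by their UMIs of the 10 interferon-γ genes, for each library. Slamf8 climbs from 16.9% to 53.5% in Fcmr-/- cells and from 7.49% to 41.8% in Fcmr+/+ cells, whereas Cd84 stays near 80% in Fcmr-/- cells.

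Co-detection in single cells was weak for all pairs. Over 15 pairs in thinned cells the median log2 odds ratio was 0.25 in Fcmr+/+ and 0.19 in Fcmr-/- cells, with 10 and 9 intervals above 0 and 0 below. Pearson correlations of log-normalized counts of the thinned cells lay between -0.03 and 0.17, and in counts this sparse no finding is drawn from them. The largest log2 odds ratio was that of Slamf7 and Slamf8 in Fcmr-/- cells, 0.83 (interval 0.67 to 0.99), where a Slamf8 UMI was found in 33.0% of cells with Slamf7 and 21.7% of cells without. In Fcmr+/+ cells the same pair had 0.41 (interval 0.15 to 0.67). Within clusters the ratio was 0.48 in Fcmr-/- and 0.37 in Fcmr+/+ cells. Cd84 and Ly9 had 0.45 in both libraries, and Slamf7 and Ly9 had 0.48 in Fcmr+/+ and 0.43 in Fcmr-/- cells.

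**Figure D5:**
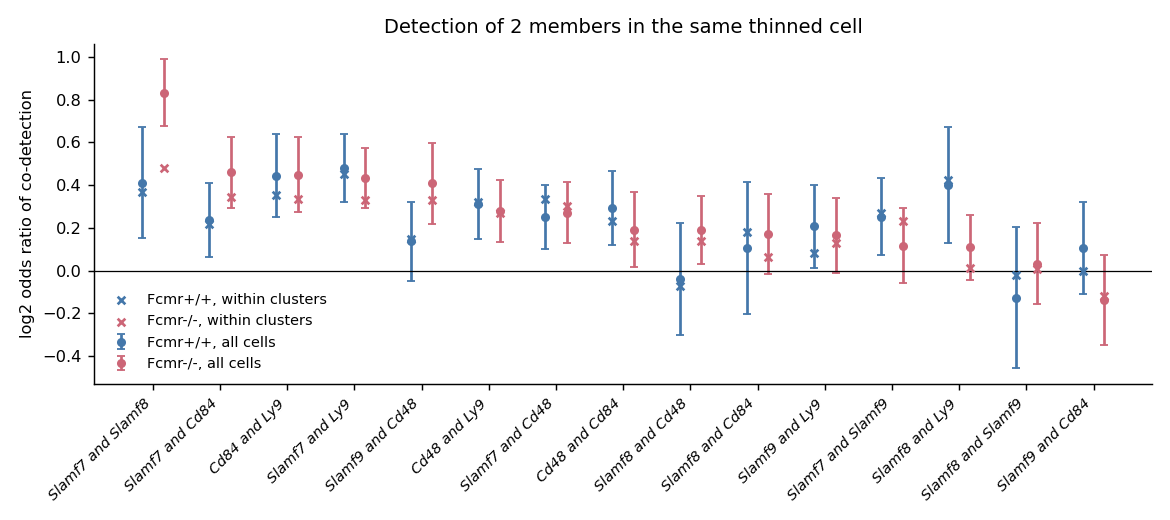
Log2 odds ratio that a thinned cell has a UMI of both genes of a pair, by library, over all cells (circles, with approximate 95% intervals for counting error) and within clusters (crosses). Slamf7 and Slamf8 in Fcmr-/- cells stand highest at 0.83 over all cells and at 0.48 within clusters.

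Across the 21 sums of cluster and library with at least 50 cells, the receptors formed loose pairs. Pearson's r of log2(CPM + 1) was 0.81 between Cd84 and Ly9 and 0.67 between Slamf7 and Slamf8, and between -0.10 and 0.44 for the other pairs. These sums come from 2 libraries and share their depth and state, so r is a description of the profiles and carries no p. Each r also includes the difference between the libraries. Slamf7, Slamf8 and both interferon lists were higher in Fcmr-/- cells, so r among them can partly restate that difference. Among lists of state genes, Slamf8 was most alike the interferon-γ list (r = 0.70), Slamf7 was about equally alike the type I (r = 0.58) and the interferon-γ list (r = 0.55), and Cd48 ran opposite to the hypoxia list (r = -0.80). Slamf7 ran opposite to the scavenger receptor list (r = -0.73) and Slamf9 to the matrix and lipid list (r = -0.76).

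Of 6580 genes compared over these 21 sums, those with profiles most alike Slamf8 were Cnn3 (r = 0.83), Dram1 (r = 0.82) and Psme2 (r = 0.82), the last a subunit of the proteasome activator. For Slamf7 they were Slc31a2 (r = 0.86), Zfp281 (r = 0.85) and Nampt (r = 0.84). For Slamf9 they were Selplg (r = 0.87), Rsbn1l (r = 0.82) and Pias1 (r = 0.81), and for Cd48 Ndufb3 (r = 0.91), Zbtb8os (r = 0.91) and Tlr1 (r = 0.90). Cd84 was most alike the lysosomal genes Naglu (r = 0.92), Psap (r = 0.89) and Ctsz (r = 0.87). Ly9 was most alike Galnt7 (r = 0.93), Hk3 (r = 0.87) and Glmp (r = 0.87), of which Glmp also encodes a lysosomal protein.

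The other receptors of the family were scarce. Slamf6 had 2.82 CPM in Fcmr+/+ and 6.64 CPM in Fcmr-/- cells, with a log2 ratio of 1.23 (interval 1.06 to 1.42), and was highest in clusters 9 and 3 at 11.8 and 8.50 CPM. Cd244, the receptor for CD48, did not reach 1.5-fold, with a log2 ratio of -0.13 (interval -0.25 to -0.01). Slamf1 and Cd2 stayed under the minimum of 5 CPM, with 140 and 153 UMIs in Fcmr+/+ and 71 and 189 UMIs in Fcmr-/- cells. Among the 2 of these 4 genes that were tested, 1 was past 1.5-fold higher and 0 lower.

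Of the adaptors, only Sh2d1b1, which encodes EAT-2, passed the minimum, with 12.0 CPM in Fcmr+/+ and 11.1 CPM in Fcmr-/- cells. Sh2d1a, which encodes SAP, the adaptor of T and NK cells, had 5 UMIs in the Fcmr+/+ library and 61 UMIs in the Fcmr-/- library, and Sh2d1b2 had 0 and 2. Thus the adaptor found in these phagocytes at a measurable level was EAT-2, and its level did not follow that of the receptors.

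Among the kinases and phosphatases that act below the receptors, Ptpn6 was past 1.5-fold higher in Fcmr-/- cells, with 118 CPM in Fcmr+/+ and 185 CPM in Fcmr-/- cells (log2 ratio 0.64). The kinases Lyn (161 and 180 CPM), Fyn (20.3 and 22.8 CPM), Fgr (22.1 and 26.7 CPM) and Csk (79.0 and 84.0 CPM) did not reach that fold. Neither did the phosphatases Ptpn11 (37.0 and 36.5 CPM), Inpp5d (99.8 and 91.6 CPM) and Inppl1 (27.3 and 29.7 CPM).

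The genes of the SLAMF7 phagocytosis pathway differed less than Slamf7 itself. This holds for most genes, since the log2 ratio of Slamf7 was at or above 98.9% of those tested. Of 6, 0 were past 1.5-fold in either direction, where 2.64% of all genes tested were higher and 2.17% lower. The median log2 ratio of the 6 was 0.18. Itgam, a chain of Mac-1, had 249 CPM in Fcmr+/+ and 310 CPM in Fcmr-/- cells, and its partner chain Itgb2 had 203 and 268 CPM. The signaling chains Fcer1g (2667 and 2831 CPM) and Tyrobp (1617 and 1721 CPM) and the kinase Btk (29.6 and 35.8 CPM) were also higher in Fcmr-/- cells. The kinase Syk was slightly lower in them (117 and 112 CPM).

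Genes of the phagocyte oxidase and of autophagy, linked with SLAMF8 and its relatives, differed less than Slamf8. Nearly all genes did, since the log2 ratio of Slamf8 was at or above 99.8% of those tested. Cybb, the catalytic oxidase subunit, had 348 CPM in Fcmr+/+ and 458 CPM in Fcmr-/- cells, with a log2 ratio of 0.40 (interval 0.38 to 0.42). Cyba (1817 and 1991 CPM), Ncf1 (99.7 and 102 CPM) and Ncf4 (77.8 and 95.7 CPM) had smaller ratios. Becn1 (59.7 and 57.7 CPM) and Pik3c3 (log2 ratio 0.03), of the autophagy complex, were nearly level. None of the oxidase genes named here reached the 4.28-fold difference in Slamf8, and few of all genes tested did.

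Several receptors are also made by lymphocytes and dendritic cells, which the MerTk+ CD64+ sort would largely remove. A list of 9 T and NK cell markers summed to 3.72 CPM (interval 3.40 to 4.07) in Fcmr+/+ and to between 19.2 and 20.8 CPM (the interval) in Fcmr-/- cells, and 6 conventional dendritic cell markers to 3.04 and 8.07 CPM. All 9 T and NK markers had more UMIs in the Fcmr-/- library. In Fcmr+/+ and Fcmr-/- cells Ncr1 had the fewest, 0 and 1 UMI, while Gzmb had 10 and 619 UMIs. Cells with at least 3 T and NK markers numbered 4 and 32, and they held 0.10% of Slamf8 UMIs and 0.06% of Slamf7 UMIs in Fcmr+/+ and 0.25% and 0.32% in Fcmr-/- cells. Without all cells that had a UMI of a T and NK, B and plasma, dendritic, neutrophil or mast cell marker, Slamf8 had 15.9 CPM in Fcmr+/+ and 66.2 CPM in Fcmr-/- cells, and Slamf7 97.9 and 179 CPM. The ratios of both genes between the libraries were therefore about as large without these cells. The log2 ratios of Cd48 and Ly9 were smaller without them, at 0.15 and 0.35 against 0.19 and 0.40 over all cells. Ifng, which encodes interferon-γ, had 1 UMI in the Fcmr+/+ library and 41 UMIs in the Fcmr-/- library, and its part in the differences was not tested.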

How the data were processed

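The deposited matrices hold whole UMI counts, which the authors made, per the study's methods, with Cell Ranger 2.0.1 from 10x 3′ reads mapped to GRCm38. The submitters' processing notes also name Seurat 2.1.0. The files held 6392 and 8017 barcodes (Fcmr+/+ and Fcmr-/-), the study states 6352 and 7999 cells, and its filters, from 200 to 7000 genes and no more than 30% mitochondrial UMIs, left 6352 and 7999. The cells kept held 128408544 and 124630621 UMIs. No doublet caller was run.

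CPM is the summed UMIs of a gene over those of all genes times 1000000. A UMI stands for 1 transcript tagged near its 3′ end, so CPM was not divided by length, and capture may differ between genes. Poisson, binomial and conditional binomial intervals are exact. Those of odds ratios are Woolf's, and PCR and pooling errors are not covered. Clusters were made with Seurat 5.3.0 (R 4.3.3) on values log-normalized to 10000, from genes with log means from 0.0125 to 3, dispersions over 0.5, 10 principal components, 30 neighbors and a resolution of 0.8. The other steps used Python 3.11.15, numpy 2.4.6, scipy 1.17.1 and pandas 2.3.3. Of these, the log2 ratios and the odds ratios were tested on simulated data. Thinning drew each cell to 6643 UMIs, the 10th percentile of Fcmr-/- cells. Gene positions are those of GENCODE for GRCm38.

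The members and lists were chosen with earlier results of these data known. The text names the 6 members, genes of their partner lists (some are not reported here), the 3 genes most alike each member in profile (at least 20 CPM in 1 sum) and the 5 leading genes of each cluster (at least 50 CPM). Ifng, Ncr1, Gzmb, Fcmr and the neighbors on chromosome 1 were named in addition. Alternatives covered the pseudocount, scaling, thinning, limits on cells, clustering and cells with markers of other types.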

Additional observations from a re-analysis of the deposited data

How the results depend on the processing

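With 1 library per genotype no library could be left out, and no paired analysis was possible because each group has 1 sample. Under the 11 other settings every member kept the sign of its log2 ratio. Of these, leaving out clusters 3 and 9 was chosen after the data were seen. The ranges were 0.55 to 0.95 for Slamf7, 1.19 to 2.14 for Slamf8 and -0.30 to -0.01 for Slamf9. They were 0.15 to 0.20 for Cd48, 0.11 to 0.16 for Cd84 and 0.34 to 0.50 for Ly9. The number of members at least 1.5-fold higher was 1 in place of 2 with equal weight for each cluster, and 1 with a 2-fold limit. It was 2 otherwise, and 0 were lower throughout. The median log2 ratio of the members moved from 0.30 to 0.35 as a mean over cells, to 0.25 without cells with a marker of another type and to 0.25 without clusters 3 and 9. The median log2 odds ratio over both libraries was 0.24 and became 1.196 without thinning, which leaves the depth of each cell in the measure. The cause of the other moves was not tested. Depth limits Slamf8 most, with 2019 UMIs in Fcmr+/+ cells, and all intervals leave out the spread between mice.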
